A study of Mus musculus with 2 samples.

Results

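Binding of REV-ERBα around Bach2 and Foxo1, both genes of the quiescent and memory state of T cells, was read from a chromatin immunoprecipitation sequencing (ChIP-seq) peak list of mouse T helper 17 (Th17) cells, in mm9 coordinates. Members were chosen by position: all listed peaks whose midpoint lay between 32300000 and 32700000 on chromosome 4, the Bach2 window, or between 52000000 and 52300000 on chromosome 3, the Foxo1 window. These windows held 25 of the 8884 listed peaks, 20 of them around Bach2 and 5 around Foxo1. The ChIP sample was prepared with an antibody to REV-ERBα from wild-type Th17 cells in primary culture, and input DNA came from the same kind of cells. There was 1 ChIP sample and 1 input sample, so no value below has a replicate check, and intervals are exact 95% intervals that cover counting error only. The strain, age and number of animals, the number of cultures and the time of day of harvest are not stated in the labels, and cell identity could not be checked in a peak list. Both windows were picked with the peak list known, so they were in part selected on the number, spacing and tags of their peaks. Those values are therefore a description and were not tested.

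REV-ERBα is a heme-binding nuclear receptor and clock component that silences its targets by recruiting the NCoR corepressor with HDAC3. It binds the receptor motif AGGTCA with an A-T rich flank, an element it shares with the ROR receptors, among them RORγt, which directs the Th17 programme. BACH2 is a bZIP repressor that pairs with small Maf proteins, competes with AP-1 factors at their sites and holds back effector genes in T cells. FOXO1 is a forkhead activator that Akt phosphorylation removes from the nucleus; it maintains genes of naive and memory T cells such as Klf2 and Il7r, and it is known to restrain RORγt activity in Th17 cells.

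The Bach2 window was densely occupied, while its flanks had about as few peaks as the chromosome as a whole. It held 20 peaks in 400 kb, or 5 peaks per 100 kb (95% interval 3.05 to 7.72), against 0.335 per 100 kb over chromosome 4 as a whole. That interval treats peaks as placed independently, in a window picked with its peaks known. It therefore does not measure the uncertainty of the density and is no test against the chromosome. The 1 Mb before the window and the 1 Mb after it had 3 peaks each, or 0.3 per 100 kb. By 100 kb bins from its start, the Bach2 window had 3, 10, 6 and 1 peaks. Most Bach2 peaks thus lay in the middle of the window, and 16 of the 20 fell in its 2 middle bins. The window took up 0.264% of the chromosome between its first and last peak and held 3.94% of its 508 peaks and 5.70% of the tags in them.

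The Foxo1 window was sparser, and its surroundings held as many or more peaks in several bins. It had 5 peaks in 300 kb, or 1.67 per 100 kb (95% interval 0.541 to 3.89), against 0.326 per 100 kb over chromosome 3. This interval has the same limits as that of the Bach2 window. The 100 kb bins of the Foxo1 window held 2, 2 and 1 peaks. The 1 Mb before it had 14 peaks, or 1.4 per 100 kb, with 0 in the nearest 100 kb. The 1 Mb after it had 20, or 2 per 100 kb, with 5 in the nearest 100 kb. Those 5 peaks had a median of 14 tags and at most 42. Of the 25 peaks on chromosome 3 between 52000001 and 53000000, 5 lay in the Foxo1 window and 20 beyond it.

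**Figure D1:**
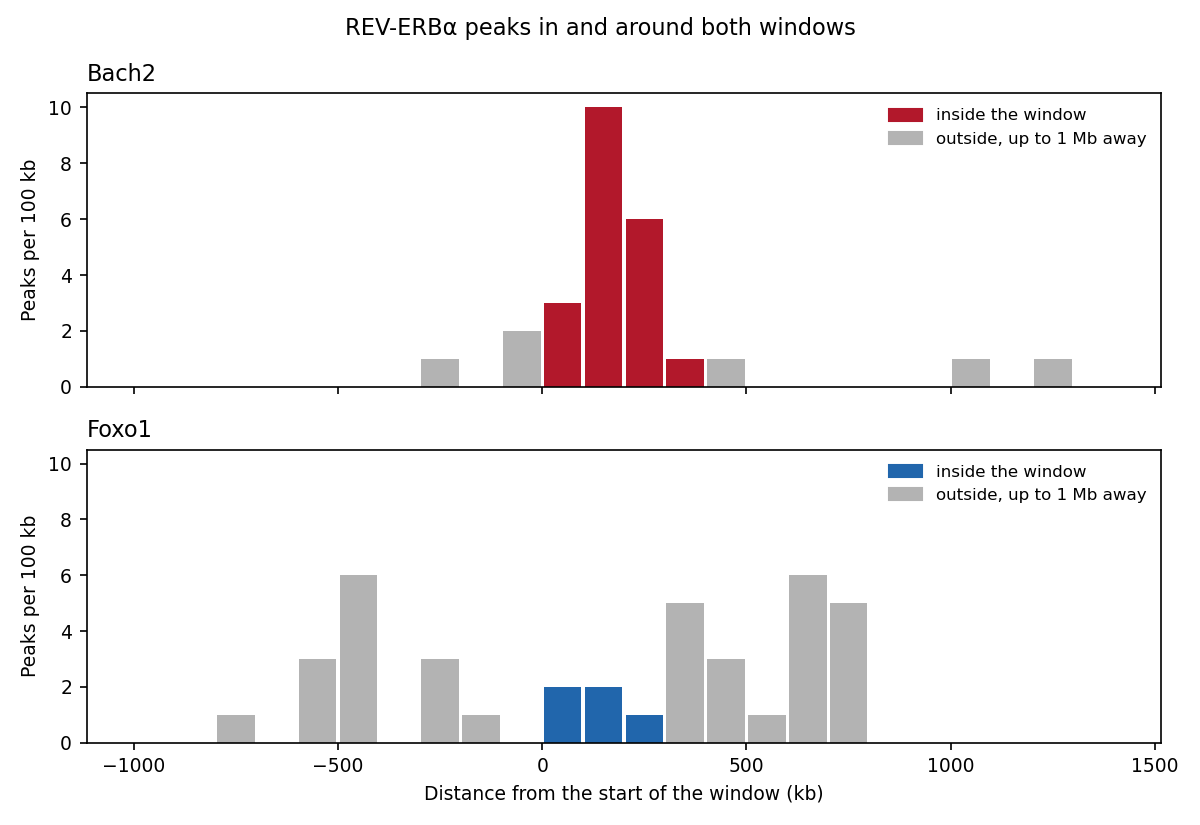
Number of REV-ERBα peaks per 100 kb (vertical axis) against distance from the start of each window in kb (horizontal axis), with bins inside the window coloured and bins up to 1 Mb outside in grey; there is 1 ChIP library and no error bar. The Bach2 window reaches 10 peaks in a bin with at most 2 in any bin outside, while the Foxo1 window has at most 2 per bin with up to 6 outside.

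Few stretches of the genome held as many peaks as the Bach2 window. Of 6170 consecutive 400 kb windows along the autosomes, none had 20 peaks; the highest number was 19 and 59.1% were empty. Those windows have fixed borders, whereas the Bach2 window was drawn around a gene. When 400 kb windows were instead started at each listed peak and overlapping ones dropped, 4 reached at least 20 peaks. They lay on chromosomes 15, 13, 19 and 4, with 22, 21, 21 and 21 peaks, and the one on chromosome 4 was the Bach2 region. For Foxo1, 587 of 8223 consecutive 300 kb windows (7.14%) had at least 5 peaks.

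The borders of the windows fell between peaks. The last peak before the Bach2 window, at 32266732 to 32267038, had 19 tags and lay 70.7 kb from the first member. The first peak after it, at 32702022 to 32702328, had 10 tags and lay 2.18 kb past the border. Around Foxo1 the peak before the window lay 149.9 kb from the first member with 19 tags, and the peak after it had 14 tags at 2.81 kb past the border. By gene order in the RefSeq table of GRCm38.p6, Bach2 is followed by Gja10, Casp8ap2 and Mdn1 and preceded by Map3k7, and Foxo1 lies between Maml3 and Cog6. The long noncoding RNA gene Bach2os overlaps Bach2. That table is of another build than the peaks, so no peak was assigned to an exon, an intron or a promoter, and peaks near the borders may belong to the neighbouring genes.

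Peaks in both windows carried more ChIP tags than the typical listed peak. The 20 Bach2 peaks had 10 to 45 tags with a median of 22.5, and the 5 Foxo1 peaks had 11 to 29 tags with a median of 19. The median of the whole list was 15, with quartiles of 12 and 20. At least 15 tags were found in 19 of the 20 Bach2 peaks and in 4 of the 5 Foxo1 peaks, where 51.3% of all listed peaks reach that count. In the authors' scale of 10000000 tags the medians were 35.2 for Bach2, 29.7 for Foxo1 and 23.5 for the list.

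Bach2 contributed several of the strong peaks of its chromosome. At least 32 tags were counted in 6 of its 20 peaks, where 4.92% of listed peaks reach 32. These 6 were among 31 such peaks on all of chromosome 4. No Foxo1 peak reached 32 tags, and chromosome 3 had 17 that did. The caller, which was set to consider at most 1 tag per bp, also gave a score to each peak. Its median was 19.5 around Bach2 and 20 around Foxo1, against 13 in the list. A score of 9 or 10, next to the caller's threshold of 9, belonged to 1 Bach2 peak and 1 Foxo1 peak, where 26% of listed peaks have such a score.

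The first Bach2 peak, at chr4:32337444-32337750, was the strongest member. It had 45 ChIP tags (95% interval 32.8 to 60.2) and 2.8 scaled input tags, a score of 37 and a fold over input of 15.9 (5.09 to 79.8). Only 2 peaks on chromosome 4 had more tags. Its neighbour 7.62 kb further on, at 32345059, had 26 tags against 2.8 input tags, 9.17-fold. This pair opened the locus, 70.7 kb after the last peak outside it. The next peak, at 32378280, had 35 tags but also 7.6 scaled input tags, the most among the members, and so the lowest fold over input of the Bach2 window, 4.63 (2.11 to 11.5).

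The next 6 peaks lay 63.1 to 124.7 kb from the first one and were of intermediate strength, with 18 to 28 tags. They included the pair at 32400590 and 32406644, with 18 and 28 tags, and the pair at 32430823 and 32438503, with 22 and 21 tags. Of these 6 peaks, the one at 32406644 had the most input, 5.7 scaled tags, and a fold of 4.94. The peak at 32438503 had 0.9 scaled input tags and a fold of 22.2 (3.57 to 919). That difference in fold between these 2 peaks rests on 6 input tags against 1, and their intervals overlap.

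The chain with the most Bach2 peaks stood at the centre of the locus. A chain here is a run of peaks whose neighbouring midpoints are at most 10 kb apart. This one joined 4 peaks from 32478305 to 32492772, spanned 14.5 kb and held 118 tags against 11.3 scaled input tags, 10.4-fold (5.74 to 20.7). Its first peak had 32 tags against 5.7 scaled input tags, a fold of 5.64. The second peak, 2.04 kb away at 32480342, had 19 tags and no input tag. Its listed fold of 40.2 is set by the lowest input value. Against 3 input tags it would be 6.70-fold over input, and its exact lower limit was 4.94-fold. The remaining peaks, at 32488465 and 32492466, had 35 and 32 tags against 2.8 scaled input tags each. With 3 of its 4 peaks at 32 tags or more, this chain held the tightest group of strong peaks in the window. The whole list has 60 chains of at least 4 peaks among 1329 chains.

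Another strong peak stood alone 19.0 kb further on, at 32511462, with 32 tags against 4.7 scaled input tags and a fold of 6.77 (2.62 to 22.3). Beyond it the Bach2 peaks were weaker. The pair at 32548679 and 32553066 had 22 and 17 tags and no input tag at either peak. The first of these had the highest listed fold of the Bach2 window, 46.6. Against 3 input tags it would be 7.76-fold over input, and its exact lower limit was 5.79-fold. The pair at 32569918 and 32571256 was the closest in the locus, 1.34 kb apart, with 22 and 18 tags. These pairs had similar tags but different input, since the last pair had 4.7 and 0.9 scaled input tags.

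The end of the window held the weakest member and a distant one. The peak at 32588936 had 10 tags (4.80 to 18.4), a score of 9 and 1.9 scaled input tags, which placed it at the caller's threshold. A stretch of 86.4 kb without a peak followed, the longest inside the window. The last member, at 32675366, had 24 tags against 2.8 scaled input tags, and lay 24.5 kb before the border.

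**Figure D2:**
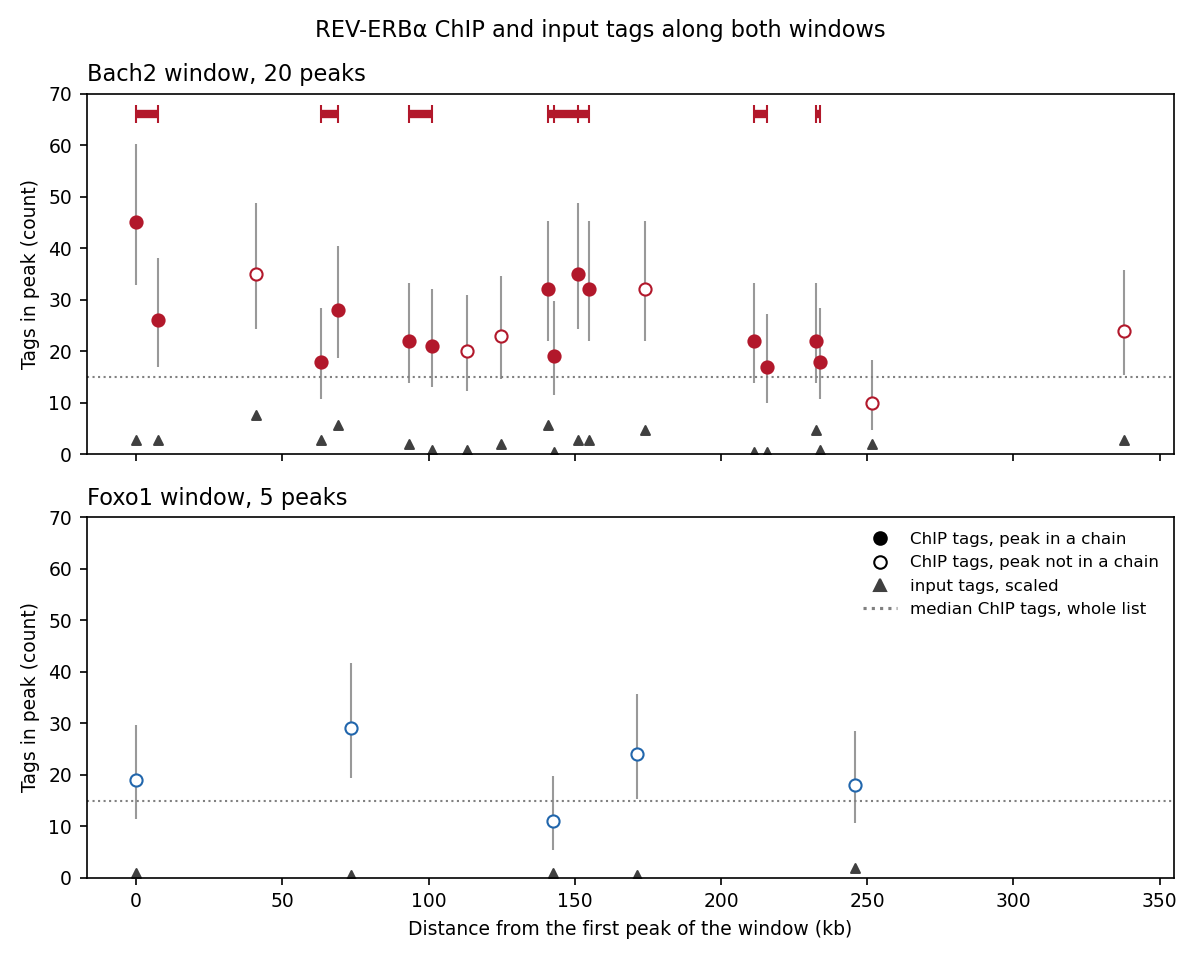
ChIP tags (circles, with exact Poisson 95% intervals) and scaled input tags (triangles) of each peak, as counts, against distance in kb from the first peak of the Bach2 window (top) and of the Foxo1 window (bottom). Filled circles and the bars along the top mark peaks in chains, 14 of 20 around Bach2 and none of 5 around Foxo1; the dotted line is the list median of 15 ChIP tags.

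Close spacing was common among the Bach2 peaks and was not seen among the Foxo1 peaks. More peaks per kb bring closer neighbours by arithmetic, and spacing beyond that density was not tested. In the Bach2 window 14 of 20 peaks (70%, 95% interval 45.7 to 88.1) had a neighbour within 10 kb, where 33.7% of all listed peaks do. They formed 6 chains, 5 of 2 peaks and 1 of 4. Neighbouring midpoints were 1.34 to 86.4 kb apart with a median of 11.96 kb, against a median of 50.8 kb in the list. A further 6 of the 19 gaps lay between 10 and 20 kb. The Foxo1 peaks were 28.5 to 74.7 kb apart with a median of 71.3 kb. A neighbour within 10 kb was found for 0 of 5 (95% interval 0 to 52.2%). Neighbours are mutual, so the peaks of a chain are not independent. Both intervals treat each peak as a separate trial, and so do not measure the uncertainty of these shares.

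The 5 Foxo1 peaks varied in strength along the window. The peak at chr3:52002009-52002315 lay 2.16 kb inside the border and had 19 ChIP tags (11.4 to 29.7) against 0.9 scaled input tags, 20.1-fold. The strongest, at chr3:52075368-52075674, had 29 tags (19.4 to 41.6), a score of 28 and no input tag. Its listed fold, 61.4, was the highest of all 25 members. Against 3 input tags it would be 10.2-fold over input, and its exact lower limit was 7.80-fold. The weakest, at 52144651, had 11 tags (5.49 to 19.7), a score of 10 and 0.9 scaled input tags. The intervals of the strongest and the weakest Foxo1 peak overlap only between 19.4 and 19.7. These peaks were picked as the extremes of the 5, so the small overlap is no test of a difference.

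Further along, the peak at chr3:52173162-52173468 was the second strongest of the window. It had 24 tags (15.4 to 35.7) and no input tag. Against 3 input tags it would be 8.46-fold over input, and its exact lower limit was 6.37-fold. The last member, at 52247826, had 18 tags against 1.9 scaled input tags and the lowest fold of the Foxo1 window, 9.52 (2.28 to 84.6). All 5 Foxo1 peaks were thus listed at 8-fold or more over input, which 61.5% of listed peaks and 13 of the 20 Bach2 peaks also were.

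Enrichment over input was near that of the list around Bach2 and listed higher around Foxo1. The median listed fold was 11.5 in the Bach2 window and 20.1 in the Foxo1 window, against 10.6 in the list. Without the peaks that had no input tag the Foxo1 median was 11.6, and with the window shortened by 50 kb on each side it was 31.2, so it depends on few peaks. A fold of at least 16 was listed for 6 of 20 Bach2 peaks and 3 of 5 Foxo1 peaks, where 28.1% of listed peaks reach it. No input tag was counted in 3 Bach2 peaks and 2 Foxo1 peaks, where 16.8% of listed peaks have none. Summed over the window, the Bach2 peaks had 501 ChIP tags against 53.9 scaled input tags, 9.30-fold (7.06 to 12.5). The Foxo1 peaks had 101 ChIP tags against 3.78 scaled input tags, 26.7-fold (10.1 to 99.9). These sums cover called peaks only, each of which had already passed 4-fold, and so are not the enrichment of a whole window. The Foxo1 ratio rests on 4 input tags, and a difference between the windows was not tested.

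Enrichment over the local region was lower at most Bach2 peaks than in the list. The caller compared each peak with the 10000 bp around it, and required 4-fold. The Bach2 peaks were listed at 4.04 to 8.26-fold over their local region with a median of 5.19, and the Foxo1 peaks at 5.40 to 10.4-fold with a median of 8.98, against a median of 7.78 in the list. At least 8-fold over the local region was reached by 1 of 20 Bach2 peaks, the isolated one at 32675366, and by 3 of 5 Foxo1 peaks, where 47.5% of listed peaks reach it. Under 5-fold were 8 of 20 Bach2 peaks and no Foxo1 peak, where 10.5% of listed peaks are. Listed peaks in chains were lower than the whole list, with a median of 6.53-fold. Of them 30.5% reached 8-fold and 20.3% were under 5-fold. Among the 14 Bach2 peaks in chains, 0 reached 8-fold and 5 were under 5-fold. The last peak of the 4-peak chain, at 32492466, had 4.04-fold, the lowest value among the members and the nearest to the 4-fold limit of this filter; 0.214% of listed peaks had a lower value.

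**Figure D3:**
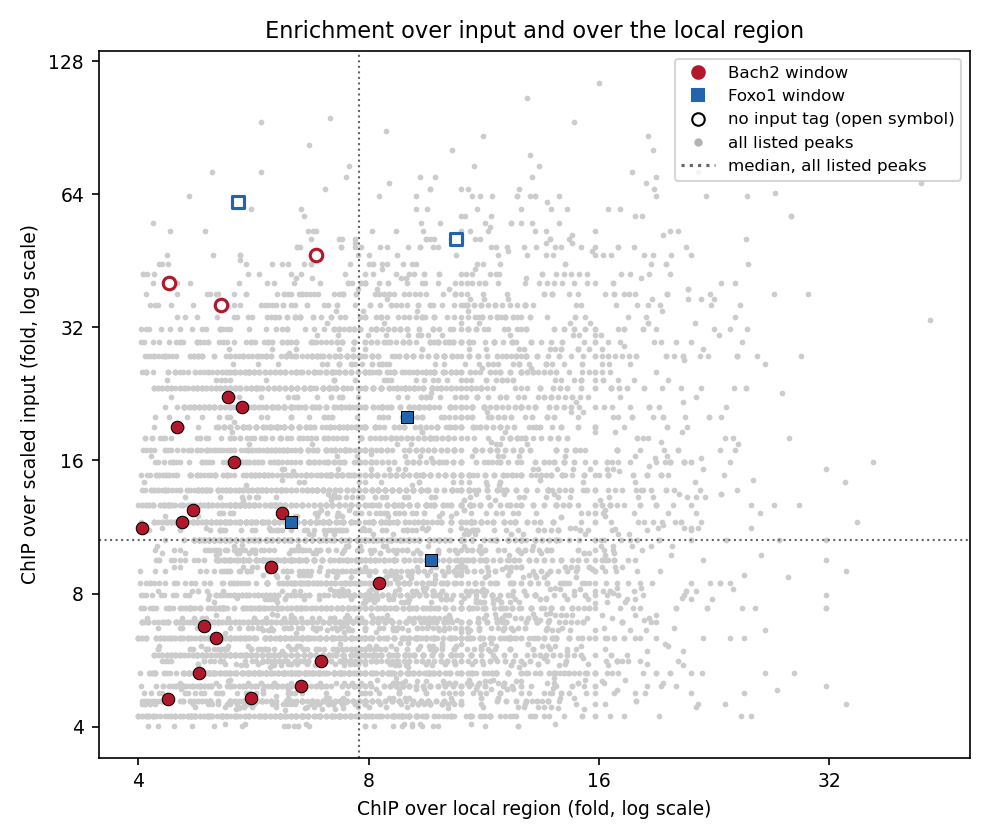
Fold over scaled input (vertical) against fold over the local region (horizontal), both as listed and on log axes, for the Bach2 peaks (circles), the Foxo1 peaks (squares) and all 8884 listed peaks (grey points); open symbols had no input tag and dotted lines are list medians. Of the 20 Bach2 peaks, 19 lie left of the list median of 7.78-fold over the local region, while they spread from 4.63 to 46.6-fold over input.

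The same listed values can be written as a local ChIP level, the tags of a peak divided by its fold over the local region. This is no separate measurement: with many tags and a low local fold it is high by arithmetic. The caller's exact scaling of the local region is not stated in the file, so the level, in tags, is relative and serves only to compare listed peaks. It was 2.08 to 8.43 tags around the Bach2 peaks with a median of 4.15, and 1.74 to 5.37 tags around the Foxo1 peaks with a median of 2.12, against a median of 1.93 in the list. It lay above the list median at 20 of 20 Bach2 peaks and at 3 of 5 Foxo1 peaks, where 49.9% of listed peaks lie above it. Of listed peaks with at least 20 tags 74.7% lie above it, and of listed peaks in chains 76.1%. In the Bach2 window 15 of 20 peaks had at least 20 tags and 14 were in chains. The level exceeded the upper quartile of the list, 2.59 tags, at 19 of 20 Bach2 peaks and at 1 of 5 Foxo1 peaks, where 25% of listed peaks do so. Of listed peaks with at least 20 tags 50.8% do so, and of listed peaks in chains 46.6%. The Bach2 peak not above the upper quartile was the weak one at 32588936, with 2.08 tags. The Foxo1 peak above the quartile was the strongest one, with 5.37 tags.

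Part of how this local level moves with peak strength and close neighbours is fixed by its definition. The level is computed from the tags of the peak, and the 4-fold filter caps it at those tags divided by 4. Tags of a close neighbour may also fall in the 10000 bp around a peak. Over the list, the median level was 2.50 tags for peaks in chains and 1.70 tags for the rest, and peaks of at least 20 tags had 2.59. In the Bach2 window the median was 4.31 tags for the 14 peaks in chains and 3.70 tags for the other 6, and the 15 peaks of at least 20 tags had 4.36. Of the 6 unchained Bach2 peaks, those at 32378280 and 32511462 had the highest levels, 7.99 and 6.57 tags. They also had the most tags of the 6, 35 and 32. The other unchained Bach2 peaks had levels of 2.08 to 3.73 tags. Scaled input in the Bach2 peaks had a median of 2.8 tags, against 0.9 in the Foxo1 peaks and 1.9 in the list. The part of these values in the local fold was not tested, and the input level of the surrounding regions was not analysed here.

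**Figure D4:**
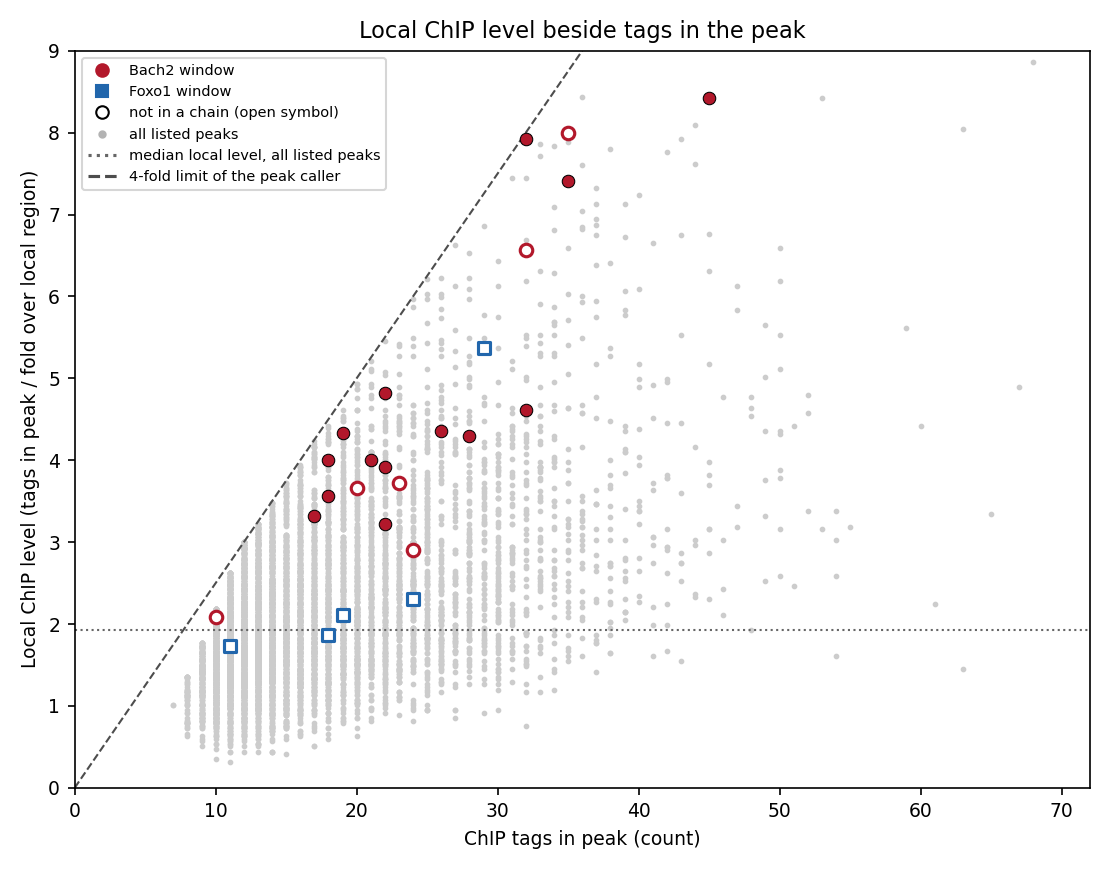
Local ChIP level (tags in the peak divided by the fold over the local region, vertical) against ChIP tags in the peak (horizontal) for the Bach2 peaks (circles), the Foxo1 peaks (squares) and the listed peaks (grey points, without the 1 peak of 10556 tags); open symbols are not in a chain, the dotted line is the list median and the dashed line the caller's 4-fold limit. All 20 Bach2 peaks lie above the list median of 1.93 tags, the lowest at 2.08, and 3 of the 5 Foxo1 peaks do. The vertical value is computed from the horizontal one, so the axes are not independent.

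The caller also measured how far tags share positions. The clonal fold change, the caller's ratio for tags that share positions, was 0.83 to 1.20 in the Bach2 peaks and 0.86 to 1.13 in the Foxo1 peaks, with medians of 0.975 and 0.97, against 0.98 in the list. The score was 0.667 to 1 of the tags around Bach2 and 0.722 to 1.05 around Foxo1, against a median of 0.88 in the list. All of these values lie inside the range of the list.

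The DNA letters under the peaks were not analysed here, since no mm9 sequence was used. In RefSeq promoter windows of 300 bases in GRCm38.p6, the motif AGGTCA was searched on both strands. It was not in the window listed for Bach2 nor in that for Foxo1, while 16.3% of 32851 such windows hold it. Whether any peak covers these promoters was not analysed here.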

How the data were processed

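REV-ERBα was profiled by ChIP-seq in 1 sample of Th17 cells with 1 input sample, and the peak list of the ChIP sample was used. Per the submitters' processing notes, CASAVA 1.8.2, Bowtie and HOMER were used with build mm9; no source used here gives the other versions. Per the file headers, HOMER findPeaks searched 6390234 ChIP tags against input at a false discovery rate of 0.001 (9 tags), and kept peaks of at least 4-fold, with p at most 1e-04, over both input and the surrounding 10000 bp. Total tags are counts, deposited unscaled. The authors scaled the normalized tag signal to 10000000 tags and the input signal to the depth of the ChIP library. The deposited fold values are ratios, and the deposited p-values are from the caller's Poisson comparison and were not used further. The authors' deposited score is a peak height.

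Input tags were recovered from tags over fold: 1 input tag is 0.945 scaled tags, and each of 7392 peaks above the lowest value was a whole number of these (relative tolerance 0.02). The lowest value, 0.5, was read as no input tag. A fold against 3 input tags was then computed for each such peak, beside the exact lower limit. The fold against 3 input tags leaves out the counting error of the ChIP tags. Intervals are exact Poisson for counts, and exact binomial (Clopper-Pearson) for shares and folds, at 95%. PCR copies are not independent molecules, so intervals cover counting error only. The code that joins peaks into chains was checked on made-up positions. With no replicate, no statistical test of the data was run. Peaks described by position were the 5 of most tags in each window (with ties), those of highest and lowest fold and those in chains of at least 3; further peaks were added after their values were seen. The members and lists were chosen with earlier results of these data known. The planned list of other quiescence genes was not used, since mm9 gene positions were not used here. Python 3.11.15, numpy 2.4.6, pandas 2.3.3, scipy 1.17.1 and matplotlib 3.10.9 were used.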

Additional observations from a re-analysis of the deposited data

How the results depend on the processing

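Of 36 alternatives over 8 results, 27 left the value within 1.5 times of that reported, and Bach2 medians also inside their exact binomial interval. For Foxo1 medians 5 peaks give no such interval. The other 9 were as follows. Requiring at least 8-fold over the local region left 1 of 20 Bach2 peaks and 3 of 5 Foxo1 peaks, and requiring at least 8-fold over input left 13 Bach2 peaks, 9 of them in chains against 14. With neighbours at most 5 kb apart, 8 Bach2 peaks were in chains. Leaving out peaks with no input tag left 3 Foxo1 peaks, with a median listed fold of 11.6 against 20.1. Shortening the Foxo1 window by 50 kb on each side gave a median fold of 31.2, and extending it by 100 kb on each side gave 10 peaks. These follow from the changed selection itself. No paired analysis was possible because there is 1 ChIP sample and no test. Replicates could not be left out. The caller listed 8884 of 14274 putative peaks, so sites that failed its filters are not listed. At 6390234 ChIP tags, sites whose score is under the threshold of 9 are not listed either. Gaps between peaks are therefore not shown to be unbound.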
